A study of Mus musculus with 10 samples.

Results

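The antiviral interferon response is the set of genes that cells switch on when they sense viral nucleic acid or are bathed in interferon. Of 47 listed genes of this response, 40 were measured, among 12393 genes named on the array. They divide into 25 measured effectors, which are the induced antiviral proteins, and 15 measured regulators, which are the interferon regulatory factors (IRFs), Stat2, the receptor chains, the Janus kinases Jak1 and Jak2 and the inhibitor Socs1. A gene was taken as measured where a probe set carried its symbol and no other, and where several qualified the brightest on average stood for it. The effectors Oas1g, Ifi44, Ddx58, Xaf1 and Ifi27 had no such probe set and were not analysed here, and Isg15 and Ifi203 were left out because their probe sets, 1 and 3 in number, also carried other symbols. Whole lungs came from 10 male C57BL/6 mice, an inbred laboratory strain, 6 to 8 weeks old. Of these, 5 had been exposed to intermittent hypoxia, in which inspired oxygen falls and recovers repeatedly, and 5 had been kept in normoxia. Each lung was hybridised to its own Affymetrix Mouse Genome 430A 2.0 array, and neither the oxygen levels nor the length of exposure is stated in the labels. All values below are log2 probe set levels as deposited. Levels are not used to compare the amount of RNA between genes, because probe sets differ in brightness for the same amount of RNA.

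In this pathway, type I interferons bind the receptor chains IFNAR1 and IFNAR2, and type II interferon binds IFNGR1 and IFNGR2. JAK1 together with TYK2 or JAK2 then phosphorylates STAT proteins, and a complex that holds STAT2 and IRF9 binds a promoter element called the interferon-stimulated response element (ISRE). A second element of the pathway is the gamma-activated site (GAS). The induced proteins sense, sequester or degrade viral RNA, or block viral entry and budding, and in the lung they act in airway and alveolar epithelium, endothelium and resident leukocytes. SOCS1 and USP18 damp the signal.

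Promoter sequences were looked at first, since many of these genes are known as direct targets of the pathway. RefSeq promoter windows (build GRCm38.p6), which run from 250 bases before to 50 bases after an annotated start, were at hand for 38 of the 47 genes. The ISRE was searched as GAAA, any 2 bases and GAAA, and the GAS as TTC, any 3 bases and GAA, on both strands, and matches of the 2 motifs may overlap. The ISRE letters occurred in 14 of 23 effector genes (60.9%) and 3 of 15 regulator genes (20%), against 3.99% of all 27025 genes in the table. The GAS letters occurred in 8 of 23 effectors (34.8%) and 5 of 15 regulators (33.3%), against 9.55% of all genes. The stretches below are the 250 bases before the start of the 3 Ifit genes, which lie in a cluster on chromosome 19, and of Rsad2 on chromosome 12. They are shown because Ifit2 and Rsad2 had the largest changes among the effectors, in opposite directions, and because Ifit2 was called and its neighbours were not. Capitals mark ISRE letters in Ifit1, Ifit3 and Rsad2 and GAS letters in Ifit2, and each stretch is written 5′ to 3′ on the gene's strand.
Ifit2, first start, chr19:34550444-34550693, + strand: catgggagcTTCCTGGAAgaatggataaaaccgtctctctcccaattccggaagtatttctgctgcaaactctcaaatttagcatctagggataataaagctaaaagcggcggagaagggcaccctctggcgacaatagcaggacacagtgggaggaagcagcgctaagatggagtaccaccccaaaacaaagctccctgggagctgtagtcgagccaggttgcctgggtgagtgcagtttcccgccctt
Ifit2, second start, chr19:34550838-34551087, + strand: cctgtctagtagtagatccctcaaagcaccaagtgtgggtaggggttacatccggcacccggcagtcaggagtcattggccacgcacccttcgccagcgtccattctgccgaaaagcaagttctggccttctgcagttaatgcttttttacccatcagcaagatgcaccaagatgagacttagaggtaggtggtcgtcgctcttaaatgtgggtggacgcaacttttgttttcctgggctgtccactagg
Ifit1, chr19:34640639-34640888, + strand: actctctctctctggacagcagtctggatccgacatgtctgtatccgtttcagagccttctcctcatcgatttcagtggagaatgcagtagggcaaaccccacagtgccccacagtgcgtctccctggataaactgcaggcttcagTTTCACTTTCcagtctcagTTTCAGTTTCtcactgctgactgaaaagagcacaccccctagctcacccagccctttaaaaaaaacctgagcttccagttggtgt
Ifit3, chr19:34583279-34583528, + strand: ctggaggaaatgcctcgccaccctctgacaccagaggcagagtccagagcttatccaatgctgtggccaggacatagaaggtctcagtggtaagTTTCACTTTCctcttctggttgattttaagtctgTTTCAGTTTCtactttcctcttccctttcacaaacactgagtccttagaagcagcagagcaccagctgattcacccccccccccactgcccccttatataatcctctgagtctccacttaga
Rsad2, chr12:26456453-26456702, - strand: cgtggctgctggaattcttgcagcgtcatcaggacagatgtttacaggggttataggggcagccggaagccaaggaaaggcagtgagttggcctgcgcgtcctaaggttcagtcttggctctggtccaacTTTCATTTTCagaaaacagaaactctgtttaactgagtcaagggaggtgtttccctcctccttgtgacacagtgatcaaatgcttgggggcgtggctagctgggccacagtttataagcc
Ifit1 and Ifit3 each held 2 ISRE matches, at 104 to 95 and 85 to 76 bases before the start in Ifit1 and at 156 to 147 and 122 to 113 bases in Ifit3. Rsad2 held 1, at 120 to 111 bases. Neither Ifit2 window held the ISRE letters, and its only GAS match lay 241 to 233 bases before the first start. A match describes letters and not a bound site, and a window without them says nothing about elements elsewhere.

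The arrays did not all stand alike. Normoxia arrays 2, 3 and 4 had a narrower spread over all probe sets (SD from 1.89 to 1.93) than the other 7 arrays (1.99 to 2.05), while array medians lay between 7.69 and 7.73. Over all named genes, limma called 1107 higher and 446 lower after intermittent hypoxia at an adjusted p below 0.05, which is 8.93% and 3.60% of 12393 (12.5% together). Over all 22626 probe sets, named or not, 8.50% were called higher and 3.43% lower (11.9% together). After quantile normalization, 720 genes (5.81%) were higher and 591 (4.77%) lower. Only 0.0807% of genes passed once normoxia arrays 2, 3 and 4 were left out together. Genes with higher signal leaned upward: of the 3098 with the highest mean signal 18.0% were called higher and 2.19% lower, with a median log2 difference of 0.14, against 0.02 without those 3 arrays. Lung identity was as labelled, since the epithelial genes Sftpc, Scgb1a1 and Sftpa1 stood among the brightest genes, at signal percentiles of 100, 99.99 and 99.9.

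The effectors did not move together. Of 25 measured, 3 rose (Ifit2, Rtp4 and Oasl2), 3 fell (Rsad2, Dhx58 and Oasl1) and 19 did not pass, so 12% were called in each direction, against 8.93% of all genes higher and 3.60% lower. Their log2 differences ran from -0.70 to 0.68 with a median of 0.06, against a median of 0.01 over all genes. The regulators leaned upward. Of 15 measured, 4 rose (Jak1, Irf8, Irf5 and Ifnar2), none fell and 11 did not pass, which is 26.7% called higher, against 8.93% of all genes. At an unadjusted limma p below 0.05, 6 regulators were higher and 0 lower, where 19.9% of all genes were higher and 12.7% lower, and SAM also called 0 regulators lower. Of the regulators 12 had a positive difference, with a median of 0.20, where 53.2% of all genes had one. Bright genes leaned the same way: 18.0% of the 3098 with the highest mean signal were called higher, with a median of 0.14. Of the 40 genes 13 were among these, with 4 called higher and 1 lower. Mean levels were 10.46 for Jak1, 9.89 for Irf8, 9.79 for Ifnar2 and 7.81 for Irf5. Whether the regulators differed from genes of like signal was not tested. Without normoxia arrays 2 to 4 limma called none of the 40 genes, while 2 effectors and 1 regulator were higher and 3 effectors lower at an unadjusted p below 0.05, where 5.88% of all genes were higher and 4.91% lower. In that fit the effector median was 0.01 and the regulator median 0.04, and 10 regulators had a positive difference, against 50.9% of all genes. In whole lung, more cells of a type and more RNA per cell cannot be told apart.

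**Figure D1:**
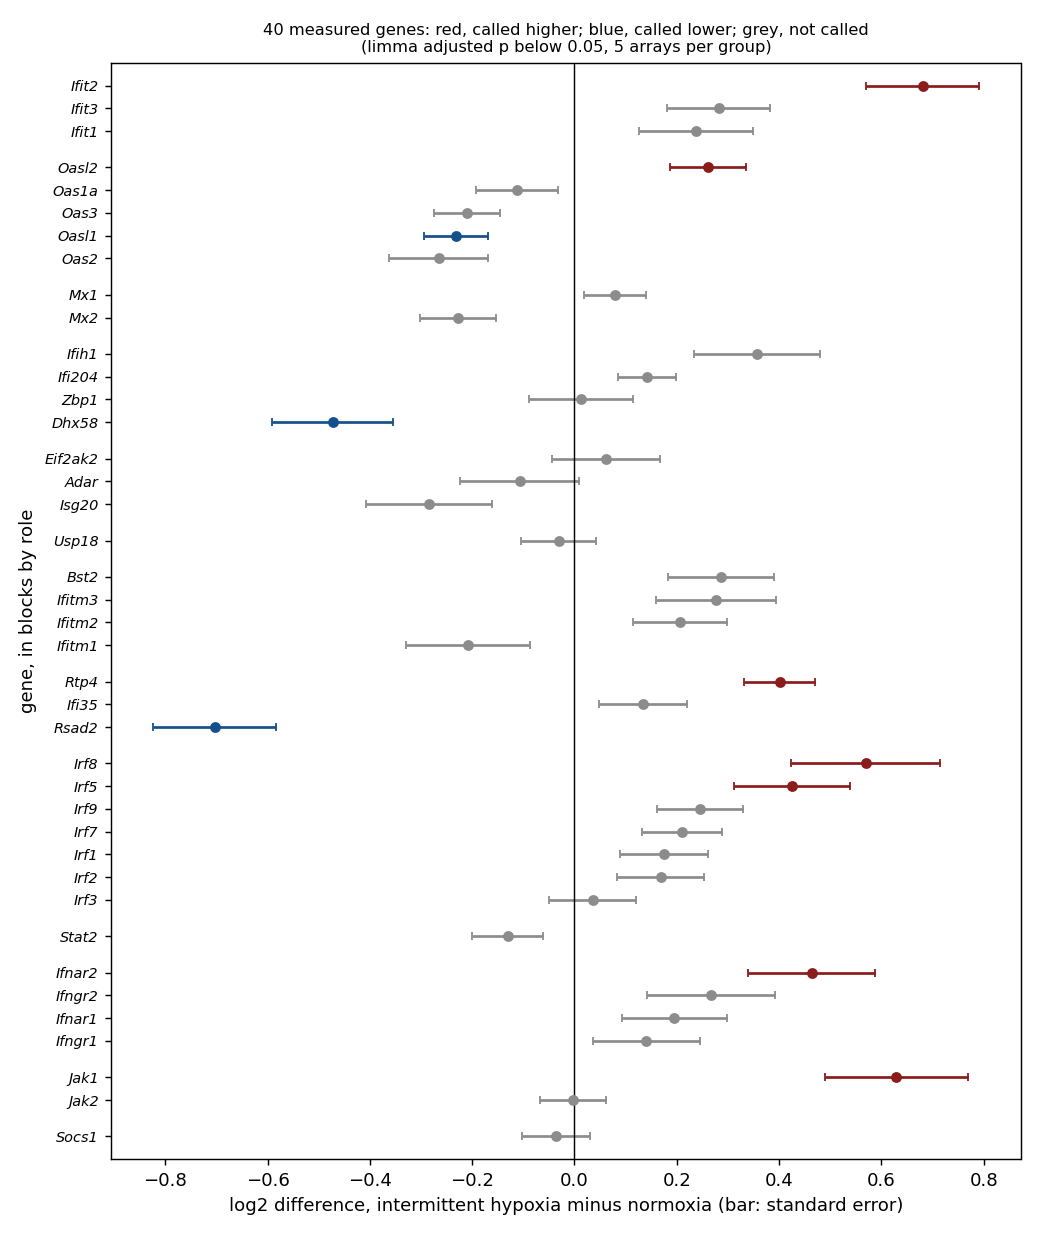
Log2 difference (intermittent hypoxia minus normoxia, 5 arrays each) with its standard error for the 40 measured genes, in blocks by role, red for called higher, blue for called lower and grey for not called. Effectors lie on both sides of 0, from -0.70 for Rsad2 to 0.68 for Ifit2, whereas all 7 IRF genes and all 4 receptor chains lie to the right of it, only some of them called, and after quantile normalization Irf3 (-0.12) and Ifngr1 (-0.0038) turned negative. Each point is the brightest probe set of its gene, and the other probe sets of Irf3, Irf5 and Ifngr2 had negative differences.

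Among the IFIT proteins, which bind viral RNA and hold back its translation, Ifit2 had the largest rise of all 40 genes. Ifit2 levels were 8.41, 8.34, 8.26, 8.04 and 8.07 on hypoxia arrays 1 to 5, against 7.72, 7.50, 7.17, 7.59 and 7.73 on normoxia arrays 1 to 5. Every hypoxia lung lay above every normoxia lung. The difference was 0.68 on the log2 scale (SE 0.11), or 1.60-fold (limma adjusted p = 0.00562). Ifit3 averaged 9.44 ± 0.15 in hypoxia and 9.15 ± 0.20 in normoxia, and Ifit1 averaged 8.34 ± 0.18 in hypoxia and 8.10 ± 0.22 in normoxia (SD, n = 5 each). Neither passed, at limma adjusted p values of 0.0798 and 0.164, and their groups overlapped. Ifit2 lies next to Ifit3 among protein-coding genes. The within-array log2 ratio of Ifit2 to Ifit3 was -1.21 ± 0.16 in hypoxia and -1.61 ± 0.19 in normoxia, and that of Ifit2 to Ifit1 was -0.11 ± 0.19 in hypoxia and -0.55 ± 0.20 in normoxia. These and the other ratios of 2 genes given here were chosen after their values were seen, so they are descriptions with no test.

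Rsad2, which encodes viperin, an enzyme that makes a chain-terminating nucleotide and blocks viral RNA synthesis, had the largest fall. Its levels were 9.27, 9.44, 8.81, 9.23 and 9.30 on hypoxia arrays 1 to 5, against 9.83, 10.03, 9.81, 9.67 and 10.21 on normoxia arrays 1 to 5. No hypoxia lung reached the lowest normoxia lung, and hypoxia array 3 was lowest. The difference was -0.70 (SE 0.12), a level of 0.614 of that in normoxia (limma adjusted p = 0.00685). Both other probe sets of Rsad2 also fell, by 0.68 (SE 0.13, limma adjusted p = 0.00929) and by 0.40 (SE 0.10, limma adjusted p = 0.0237). Without normoxia arrays 2, 3 and 4 the difference was -0.81, so it was not smaller without them, although with 2 normoxia arrays left it did not pass (limma adjusted p = 0.123). Set against Ifit2, the within-array log2 ratio of Ifit2 to Rsad2 was -0.98 ± 0.28 in hypoxia and -2.37 ± 0.26 in normoxia, a gap of 1.38.

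**Figure D2:**
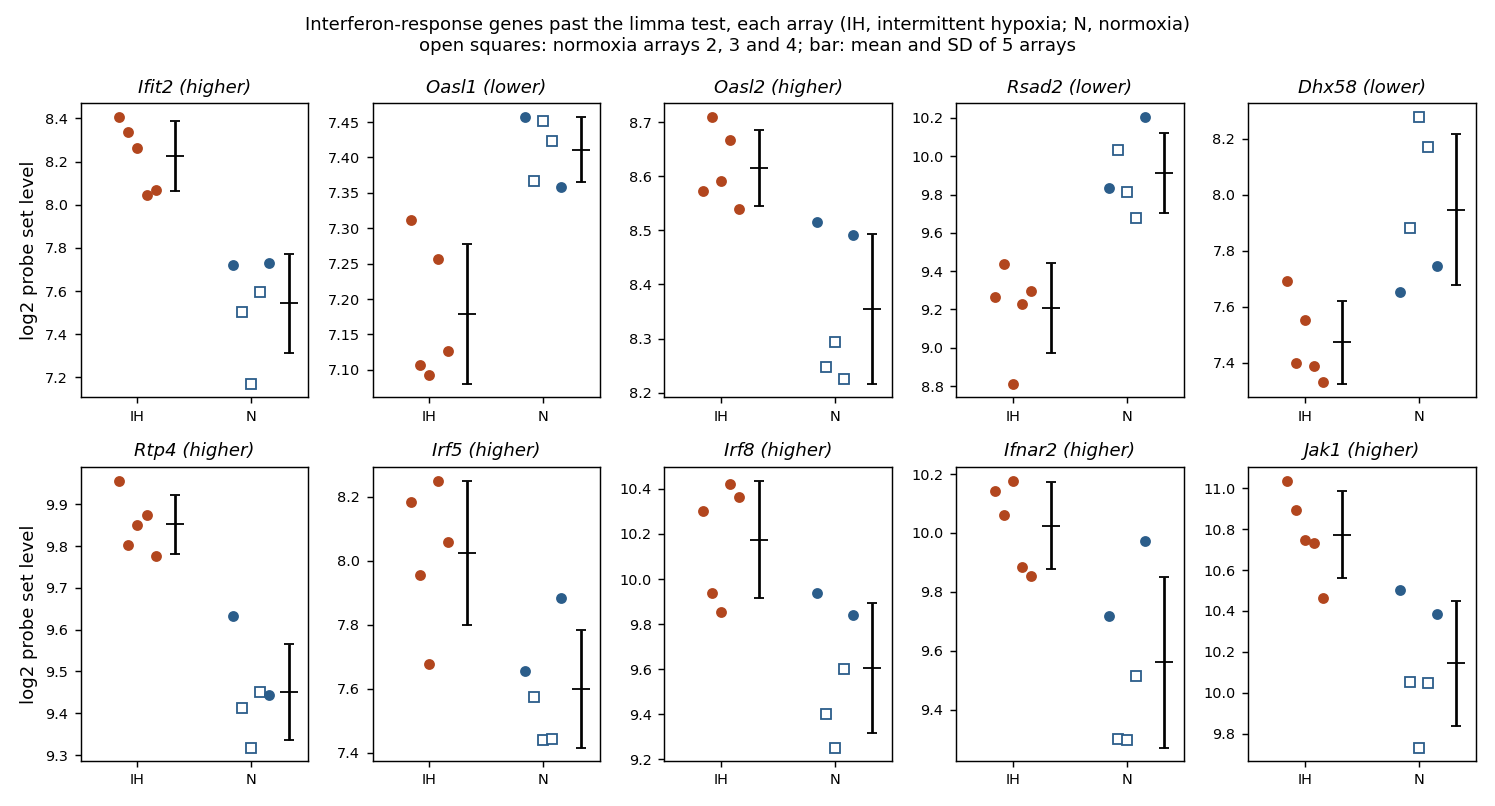
Log2 levels on each array (y axis, scaled separately for each gene) for the 10 genes past the limma test, intermittent hypoxia (IH) left and normoxia (N) right, with the mean and SD of 5 arrays beside the points and open squares for normoxia arrays 2, 3 and 4. Ifit2, Rtp4, Oasl2, Rsad2 and Oasl1 show no overlap between the groups, whereas Dhx58 and the 4 regulators overlap.

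The oligoadenylate synthetase family, whose active members make the second messenger that turns on RNase L, split in direction. Oasl2, an active synthetase in mice, had levels of 8.57, 8.71, 8.59, 8.67 and 8.54 on hypoxia arrays 1 to 5, against 8.51, 8.25, 8.29, 8.23 and 8.49 on normoxia arrays 1 to 5. Oasl1, an inactive relative that in mice holds back translation of Irf7 mRNA, had levels of 7.31, 7.11, 7.09, 7.26 and 7.13 on hypoxia arrays 1 to 5, against 7.46, 7.37, 7.45, 7.42 and 7.36 on normoxia arrays 1 to 5. The groups did not overlap for either gene, but the gap was narrow for Oasl2, where hypoxia array 5 and normoxia array 1 nearly met. Oasl2 rose by 0.26 (SE 0.07, limma adjusted p = 0.0387) and Oasl1 fell by 0.23 (SE 0.06, limma adjusted p = 0.0336). The 2 genes are neighbours on chromosome 5, and their within-array log2 ratio, Oasl2 to Oasl1, was 1.44 ± 0.13 in hypoxia and 0.94 ± 0.14 in normoxia. Leaving out 1 array ended the call of Oasl2 for 7 of the 10 arrays and that of Oasl1 for 6, with limma adjusted p values up to 0.101 and 0.0827. After quantile normalization Oasl2 differed by 0.22 and did not pass (limma adjusted p = 0.0537). The 3 other measured synthetases had negative differences and did not pass. They were -0.27 for Oas2 (limma adjusted p = 0.0863), -0.21 for Oas3 (limma adjusted p = 0.0502) and -0.11 for Oas1a (limma adjusted p = 0.360), and the Oas3 groups did not overlap, with hypoxia levels from 6.38 to 6.55 and normoxia levels from 6.60 to 6.82.

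Of the RNA and DNA sensors, Dhx58 fell. It encodes LGP2, a helicase of the RIG-I family that lacks the signalling domain and tunes the others. Dhx58 levels were 7.69, 7.40, 7.55, 7.39 and 7.33 on hypoxia arrays 1 to 5, against 7.66, 7.88, 8.28, 8.17 and 7.75 on normoxia arrays 1 to 5. Hypoxia array 1 lay above normoxia array 1, and normoxia arrays 3 and 4 were the highest. The difference was -0.47 (SE 0.12, limma adjusted p = 0.0255), and it was -0.23 without normoxia arrays 2 to 4. The call ended when any of 4 arrays was left out. The other probe sets of Dhx58 differed by 0.11 and -0.01 and did not pass, and averaging the 3 gave a difference below the threshold (-0.12, limma adjusted p = 0.175). Ifih1, which encodes the signalling helicase MDA5, had levels of 9.25, 9.59, 9.36, 9.34 and 8.85 on hypoxia arrays 1 to 5, against 9.16, 8.94, 8.66, 8.89 and 8.95 on normoxia arrays 1 to 5. Hypoxia array 5 was low and fell within the normoxia range, and the difference of 0.36 (SE 0.12) did not pass (limma adjusted p = 0.0741). Without hypoxia array 5 the difference was 0.46, and it passed (limma adjusted p = 0.0153). It passed in 2 of the fits that left out 1 array, and limma adjusted p rose to 0.178 in others. Without normoxia arrays 2 to 4 the difference was 0.22 (limma adjusted p = 0.720). Ifi204, a DNA sensor gene, differed by 0.14 (limma adjusted p = 0.108) with no overlap between groups, and Zbp1, a sensor of Z-form nucleic acid, by 0.01 (limma adjusted p = 0.945). Ifi204 averaged 4.59 in hypoxia and 4.45 in normoxia, near the lowest values of the arrays, about 4.0.

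Rtp4, an interferon-induced chaperone of membrane receptors, rose in every hypoxia lung above every normoxia lung. Its levels were 9.96, 9.80, 9.85, 9.87 and 9.78 on hypoxia arrays 1 to 5, against 9.63, 9.41, 9.32, 9.45 and 9.44 on normoxia arrays 1 to 5. The difference was 0.40 (SE 0.07), or 1.32-fold (limma adjusted p = 0.00683). Its other probe set differed by 0.03 and did not pass. Without overlap between groups were 4 effectors higher (Ifit2, Rtp4, Oasl2 and the low-signal Ifi204) and 3 lower (Rsad2, Oasl1 and Oas3) of 25, against 5.76% of all genes higher and 2.85% lower (8.61% together). No regulator was free of overlap.

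The proteins that restrict viruses at membranes gave no call. Bst2, which encodes tetherin, a protein that holds budding virus at the cell surface, had levels of 8.62, 8.88, 8.72, 8.91 and 8.60 on hypoxia arrays 1 to 5, against 8.50, 8.31, 8.19, 8.56 and 8.75 on normoxia arrays 1 to 5. Only normoxia array 5 reached into the hypoxia range, and the difference of 0.29 (SE 0.10) did not pass (limma adjusted p = 0.0858). Ifitm3 and Ifitm2, which hinder viral entry, differed by 0.28 and 0.21, and Ifitm1 by -0.21, with limma adjusted p values from 0.127 to 0.258. After removal of normoxia arrays 2 to 4 the differences of Ifitm3 and Ifitm2 were 0.01 and 0.03.

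Isg20, an exonuclease gene, had levels of 9.75, 9.84, 9.65, 9.97 and 9.91 on hypoxia arrays 1 to 5, against 10.14, 9.86, 9.98, 9.95 and 10.61 on normoxia arrays 1 to 5. Normoxia array 5 stood high and the groups overlapped. The difference of -0.28 (SE 0.12) did not pass (limma adjusted p = 0.137), but after quantile normalization it was -0.42 and passed (limma adjusted p = 0.0291). The double-stranded RNA kinase gene Eif2ak2 and the RNA-editing enzyme gene Adar differed by 0.06 and -0.11, Ifi35, a partner of the interferon-induced protein NMI, by 0.13, and Usp18, the protease that removes ISG15 and blocks IFNAR2 signalling, by -0.03. None of these 4 passed, with limma adjusted p values from 0.309 to 0.797. Mx2, an antiviral GTPase gene, differed by -0.23 (limma adjusted p = 0.0621) and Mx1, known to be defective in C57BL/6 mice, by 0.08 (limma adjusted p = 0.391).

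Among the regulators, Jak1, the kinase shared by both receptor types, had the largest rise. Jak1 levels were 11.04, 10.89, 10.75, 10.73 and 10.46 on hypoxia arrays 1 to 5, against 10.50, 10.05, 9.73, 10.05 and 10.38 on normoxia arrays 1 to 5. Hypoxia array 5 lay just below normoxia array 1, and normoxia arrays 2, 3 and 4 were the lowest. The difference was 0.63 (SE 0.14), or 1.55-fold (limma adjusted p = 0.0163). Another probe set of Jak1 rose by 0.41 (SE 0.08, limma adjusted p = 0.0105) and the remaining probe set differed by 0.20 and did not pass. Jak1 kept its call without any single array, and its difference was 0.33 without normoxia arrays 2 to 4. Jak2, which pairs with JAK1 at the type II receptor, averaged 10.36 ± 0.06 in hypoxia and 10.36 ± 0.10 in normoxia (SD, n = 5 each), a difference of -0.0032 (SE 0.06, limma adjusted p = 0.978). The within-array log2 ratio of Jak1 to Jak2 was 0.42 ± 0.16 in hypoxia and -0.21 ± 0.26 in normoxia. The lower probe set of Jak2 differed by 0.28 and did not pass (limma adjusted p = 0.0801).

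All 7 IRF genes had positive differences, although that of Irf3 was negative after quantile normalization (-0.12), and 2 passed. The other probe sets of Irf3 differed by -0.14, -0.22 and -0.00076 and did not pass, and averaging the probe sets of Irf3 gave -0.083. Irf8, a transcription factor of dendritic cells, monocytes and B cells, had levels of 10.30, 9.94, 9.85, 10.42 and 10.36 on hypoxia arrays 1 to 5, against 9.94, 9.40, 9.25, 9.60 and 9.84 on normoxia arrays 1 to 5. Irf5, which drives cytokine genes downstream of Toll-like receptors in myeloid and B cells, had levels of 8.18, 7.95, 7.68, 8.25 and 8.06 on hypoxia arrays 1 to 5, against 7.66, 7.57, 7.44, 7.44 and 7.88 on normoxia arrays 1 to 5. In both genes hypoxia arrays 1, 4 and 5 lay above every normoxia lung, while hypoxia array 3 was the lowest of its group and fell within the normoxia range. Irf8 rose by 0.57 (SE 0.15, limma adjusted p = 0.0276) and Irf5 by 0.43 (SE 0.11, limma adjusted p = 0.0317). The other probe set of Irf8 differed by 0.52 (limma adjusted p = 0.0577), whereas that of Irf5 differed by -0.01 (limma adjusted p = 0.915), and averaging both ended the Irf5 call (0.21, limma adjusted p = 0.0951). Leaving out 1 array ended the call of Irf8 for 5 of the 10 arrays and that of Irf5 for 6, with limma adjusted p values up to 0.0693 and 0.0845. Without normoxia arrays 2 to 4 the differences were 0.28 and 0.26. After quantile normalization Irf8 differed by 0.45 and did not pass (limma adjusted p = 0.0634).

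Marker lists of leukocytes are given beside Irf8 and Irf5, against 8.93% of all genes called higher and 3.60% lower. Of 8 measured B cell markers 4 were called higher and none lower, and their summed linear intensity ran from 3191 to 5918 in hypoxia and from 2018 to 3313 in normoxia. Of 5 monocyte markers 2 were higher (10058 to 13349 in hypoxia, 8306 to 11220 in normoxia), and of 6 plasmacytoid dendritic cell markers 2 were higher (3723 to 4377 in hypoxia, 3230 to 3908 in normoxia). Each sum mainly follows the brightest markers of its list. For monocytes these were Nr4a1 and Csf1r, with hypoxia means of 12.3 and 12.5, which did not pass (limma adjusted p = 0.218 and 0.0666). The 2 monocyte markers called, Ccr2 and Cx3cr1, averaged 8.40 and 7.67 in hypoxia and add little to the sum. Of 5 conventional dendritic cell markers 1 was higher (1231 to 1559 in hypoxia, 1167 to 1370 in normoxia), and of 8 macrophage markers 1 was higher (3831 to 8106 in hypoxia, 5192 to 6921 in normoxia). T and NK cell markers were higher in 3 of 8 and 1 of 6 cases, epithelial markers in 1 of 6, and no marker of endothelium (5 measured) or neutrophils (4 measured) was called. No marker of these 10 lists was called lower, but the macrophage markers Fabp4, Mertk and Adgre1 had differences of -1.24, -0.29 and -0.21 (limma adjusted p from 0.0504 to 0.0936), and 4 of the 5 conventional dendritic cell markers were negative. The 2 plasmacytoid dendritic cell markers called were Spib and Ly6d, with hypoxia means of 8.39 and 8.38. They add little to the sum of their list, which mainly follows Tcf4 and Cox6a2, at 10.94 and 10.30 in hypoxia. Of that list Tcf4 differed by 0.21 and Ccr9, Klk1 and Cox6a2 by -0.11, -0.11 and -0.03, and none of these passed. Hypoxia array 3, lowest for Irf8 and Irf5, had the lowest B cell and monocyte sums of its group, whereas the plasmacytoid dendritic cell sum was lowest on hypoxia array 4, the highest for both genes, and the conventional dendritic cell and macrophage sums were lowest on hypoxia array 5. Some of these orders were nearly ties. The monocyte sum was 10058 on hypoxia array 3 and 10164 on hypoxia array 2. The plasmacytoid dendritic cell sum was 3723 on hypoxia array 4 and 3786 on hypoxia array 3. The part of these cells in the Irf8 and Irf5 results was not tested.

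The further IRF genes stayed below the threshold. Irf9, the DNA-binding partner of STAT2, had levels of 7.77, 7.80, 8.21, 7.91 and 7.91 on hypoxia arrays 1 to 5, against 7.69, 7.69, 7.54, 7.68 and 7.77 on normoxia arrays 1 to 5. Irf7, the main activator of type I interferon genes, had levels of 7.42, 7.44, 7.38, 7.24 and 7.46 on hypoxia arrays 1 to 5, against 7.18, 7.19, 6.99, 7.13 and 7.40 on normoxia arrays 1 to 5. In each a single normoxia lung, number 5, reached into the hypoxia range. The differences were 0.25 (SE 0.08, limma adjusted p = 0.0719) for Irf9 and 0.21 (SE 0.08, limma adjusted p = 0.0901) for Irf7. Irf1 and Irf2, which bind the same element as activator and repressor, differed by 0.18 and 0.17, and Irf3, the factor activated first by RNA sensors, by 0.04, with limma adjusted p values from 0.180 to 0.797. Stat2, which carries the transactivation domain of the complex with IRF9, differed by -0.13 (limma adjusted p = 0.216), and its other probe set by 0.36 (limma adjusted p = 0.0675).

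Of the receptor chains, Ifnar2, the high-affinity chain for type I interferon, passed. Its levels were 10.14, 10.06, 10.18, 9.88 and 9.85 on hypoxia arrays 1 to 5, against 9.72, 9.30, 9.30, 9.51 and 9.97 on normoxia arrays 1 to 5. Normoxia array 5 lay above hypoxia arrays 4 and 5, and normoxia arrays 2, 3 and 4 were the lowest. Ifnar2 rose by 0.46 (SE 0.12), or 1.38-fold (limma adjusted p = 0.0324). The call ended when any of 6 arrays was left out, with limma adjusted p values up to 0.0838, and after quantile normalization (0.34, limma adjusted p = 0.0537). Without normoxia arrays 2 to 4 its difference was 0.18, and its other probe set differed by 0.08 and did not pass. Ifnar1, the partner chain, differed by 0.20 (SE 0.10, limma adjusted p = 0.210). The within-array log2 ratio of Ifnar2 to Ifnar1 was 1.64 ± 0.11 in hypoxia and 1.37 ± 0.12 in normoxia. Ifngr2 had levels of 8.33, 8.25, 8.88, 8.63 and 8.26 on hypoxia arrays 1 to 5, against 8.30, 7.93, 8.34, 8.15 and 8.31 on normoxia arrays 1 to 5. Hypoxia arrays 3 and 4 were the highest and the other hypoxia arrays overlapped normoxia, and the difference of 0.27 (SE 0.13) did not pass (limma adjusted p = 0.165). The lower probe set of Ifngr2 differed by -0.04 and did not pass (limma adjusted p = 0.703). Ifngr1, the other chain of the type II receptor, differed by 0.14 and Socs1, the feedback inhibitor of the Janus kinases, by -0.04, and neither passed (limma adjusted p = 0.376 and 0.743).

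Averaged over genes after centring each gene, the regulators and the effectors differed in how the arrays ranked. The regulator mean was 0.13, 0.10, 0.15, 0.12 and 0.06 on hypoxia arrays 1 to 5, against -0.02, -0.20, -0.27, -0.14 and 0.06 on normoxia arrays 1 to 5. Normoxia array 5 thus stood at the level of hypoxia array 5, and normoxia arrays 2, 3 and 4 were the lowest. The effector mean was 0.06, 0.06, -0.04, 0.03 and -0.06 on hypoxia arrays 1 to 5, against 0.07, -0.05, -0.08, -0.02 and 0.03 on normoxia arrays 1 to 5, and the highest value was that of a normoxia lung. No test was made on these means, which cover genes that moved in opposite directions.

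**Figure D3:**
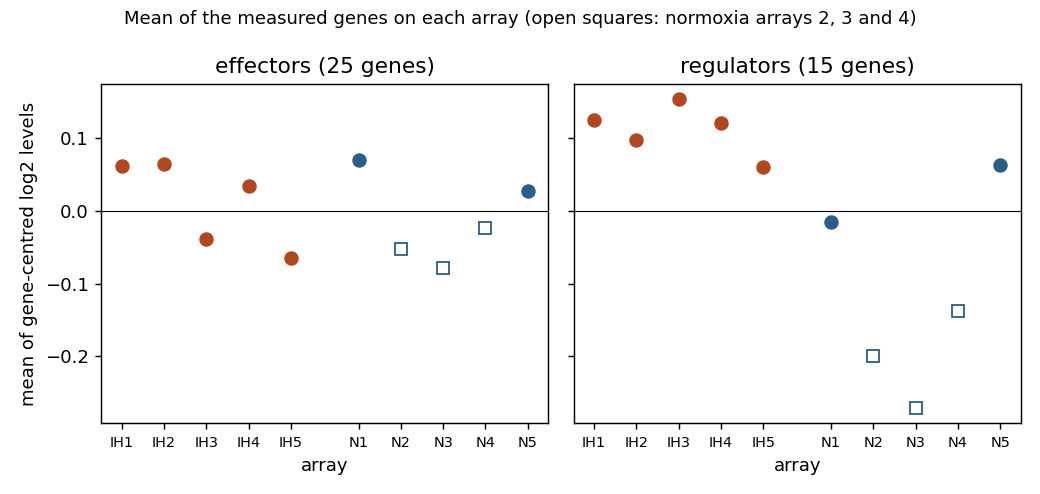
Mean of gene-centred log2 levels (y axis) on each array (x axis) for the 25 effectors (left) and the 15 regulators (right), intermittent hypoxia in orange and normoxia in blue, open squares for normoxia arrays 2, 3 and 4. The effector means of both groups overlap between -0.08 and 0.07, while the regulator means of normoxia arrays 2, 3 and 4 lie at -0.14 or below.

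All 10 called genes kept their sign without normoxia arrays 2, 3 and 4, and 9 of them had a smaller difference, the exception being Rsad2. The change was slight for Oasl1, from -0.232 to -0.228. The genes were called with those arrays included, and the other arrays are in both fits, so a kept sign is not a separate check. The differences that were left ran from 0.11 for Oasl2 to 0.50 for Ifit2 among those called higher. Among those called lower they were -0.23 for Oasl1, -0.23 for Dhx58 and -0.81 for Rsad2. With all but 1 of the arrays, Ifit2, Rsad2, Rtp4 and Jak1 passed whichever array was left out, and the 6 others lost their call at least once.

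**Figure D4:**
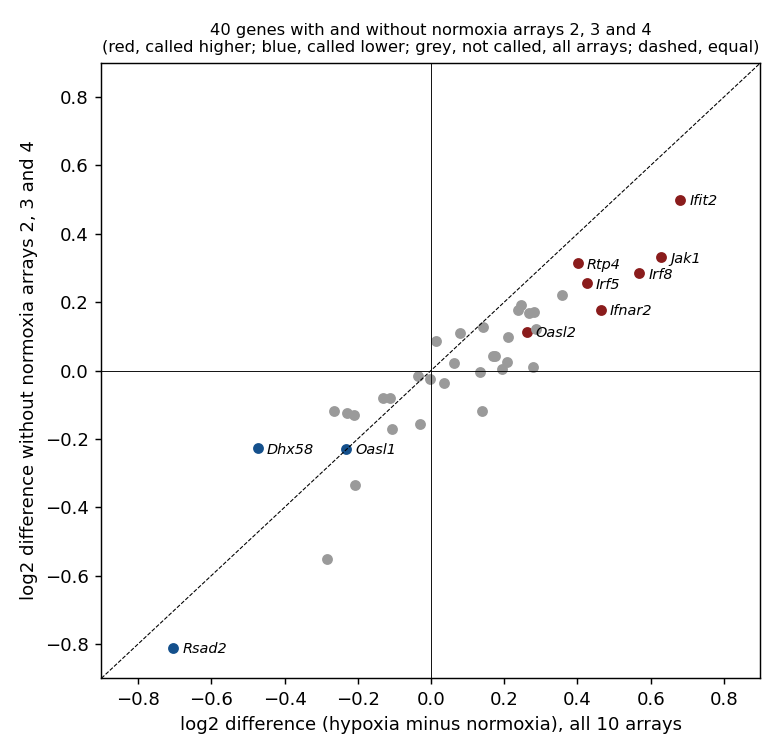
Log2 difference (intermittent hypoxia minus normoxia) of the 40 genes with all 10 arrays (x axis) and without normoxia arrays 2, 3 and 4 (y axis), with a dashed line where both are equal. Genes called higher lie to the right and below the line, Ifit2 at 0.68 and 0.50, while Rsad2 lies below the line on the left, at -0.70 and -0.81.

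The promoter letters were set beside the calls. Of the 6 genes called higher that had a promoter window (Ifit2, Oasl2, Irf5, Irf8, Ifnar2 and Jak1) none held the ISRE letters and 3 held the GAS letters. Of the 2 called lower with a window, Rsad2 held the ISRE letters and Oasl1 neither motif. Of 24 measured genes of both kinds that were not called, 12 (50%) held the ISRE letters and 10 (41.7%) the GAS letters. Among the 13 effectors of these, 9 (69.2%) held the ISRE letters and 7 (53.8%) the GAS letters, while 4 of the 6 called higher were regulators. With so few windows these shares are a description.

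Other genes of the pathway were taken from a list of 85, of which 65 were measured. Of these 11 rose and 1 fell, which is 18.5% called, against 12.5% of all genes, and the median difference was 0.09. Most rises were in the group of ISG15 conjugation and further interferon-induced genes, with 8 of 27 higher (29.6%), against 8.93% of all genes. Of the 27 genes 19 had positive and 8 negative differences, the lowest being -0.80 for Slfn4 (limma adjusted p = 0.126). Of the 3098 genes with the highest mean signal 18.0% were called higher. Whether the group differed from genes of like signal was not tested. After quantile normalization 8 of the 65 were higher, where 5.81% of all genes were. The ISG15 conjugation genes Uba7 and Ube2l6 were not among those called. They differed by -0.13 and -0.16 and did not pass (limma adjusted p = 0.236 and 0.296). Lgals9, which encodes galectin-9, rose by 0.85 (SE 0.17, limma adjusted p = 0.0120), and Parp12, an antiviral ADP-ribosyltransferase, by 0.55 (SE 0.12, limma adjusted p = 0.0141). Nmi, a partner of STAT proteins, rose by 0.46, and Lgals3bp, Tdrd7, Pml, Trim30a and Shisa5 rose by 0.33 to 0.50 (limma adjusted p from 0.0153 to 0.0342 for these 6). Hypoxia and normoxia did not overlap for Parp12, Nmi and Tdrd7. Of the 65 genes these were the 3 higher without overlap, and 2 were lower without it. Among all genes 5.76% were higher and 2.85% lower without overlap. None of the 65 passed limma without normoxia arrays 2 to 4, where 8 were higher and 3 lower at an unadjusted p below 0.05, against 5.88% and 4.91% of all genes.

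In receptor signalling, Ptpn6, the phosphatase SHP-1 of blood cells that restrains JAK signalling, had levels of 9.06, 8.81, 8.54, 9.24 and 8.76 on hypoxia arrays 1 to 5, against 8.23, 7.89, 8.16, 8.29 and 8.55 on normoxia arrays 1 to 5. Only hypoxia array 3 fell below normoxia array 5, and Ptpn6 rose by 0.66 (SE 0.14, limma adjusted p = 0.0132). Pias2, a SUMO ligase gene, rose by 0.31 (SE 0.09, limma adjusted p = 0.0350). These 2 were the only calls among 14 measured genes of receptor signalling (14.3%), against 8.93% of all genes higher. Of 14 genes of sensing and relay, only Irak1, a kinase of Toll-like receptor signalling, was called, and it rose by 0.31 (SE 0.09, limma adjusted p = 0.0385). That is 7.14% of the 14, below the 8.93% of all genes called higher. Tyk2, the kinase at IFNAR1, differed by 0.12 and Socs3, an inhibitor of cytokine signalling, by 0.25, and neither passed (limma adjusted p = 0.385 and 0.233).

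Of 10 measured interferon genes limma called none higher, and 0 were higher and 4 lower at an unadjusted p below 0.05, where 19.9% of all genes were higher and 12.7% lower. The adjusted call was lower for 1 of the 10, against 3.60% of all genes. The type I gene Ifnb1 averaged 6.47 ± 0.12 in hypoxia and 6.43 ± 0.14 in normoxia, and the type II gene Ifng 4.62 ± 0.13 in hypoxia and 4.73 ± 0.12 in normoxia (SD, n = 5 each). Their differences were 0.05 and -0.11 (limma adjusted p = 0.732 and 0.374). Ifna9 fell by 0.38 (SE 0.08, limma adjusted p = 0.0133) without overlap, but the alpha interferon genes are near-identical copies, so this probe set cannot be assigned to Ifna9 with certainty. The same holds for Ifna2, Ifna11 and Ifnab, the others of the 4 lower at an unadjusted p below 0.05, so these 4 may not be separate signals. In each of the 4, normoxia arrays 2, 3 and 4 had the highest levels. The median difference over the 10 interferon genes was -0.17 with all arrays and -0.06 without those normoxia arrays. Ifng, Ifna11 (4.68 in hypoxia, 4.88 in normoxia) and Ifnab (4.89 in hypoxia, 5.14 in normoxia) lay near the lowest values of the arrays, about 4.0, so their differences are uncertain.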

How the data were processed

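Total RNA of 10 lungs was measured, 1 array per animal. Values are log2 probe set levels as the authors deposited them. Per the submitters' processing notes the tools were affy and RMA, with neither version nor setting, and how arrays were scaled to each other is not stated there. Of 22626 probe sets, 20380 had 1 symbol in the platform annotation, 691 several and 1555 none, and those with several named no gene. No filter was applied. In R 4.3.3, limma 3.58.1 fitted intermittent hypoxia minus normoxia to every probe set and tested it two-sided, and p was adjusted by Benjamini-Hochberg over the whole array. A gene was called below 0.05. Spread between 5 animals a group sets these p-values, and precision is limited by so few arrays. Ratios of 2 genes within an array were described without a test.

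The genes, lists and pairs were chosen with earlier results of these data known. Named in full were all called genes and the 3 further effectors and 3 further regulators with the largest difference, and other genes whose values are given are members of the listed groups. Symbols of the other pathway list were matched through RefSeq where they had changed, and 1 was updated. Promoter sequences and gene order are from RefSeq (GRCm38.p6). Matched replicate numbers were checked by correlating array deviations from the group means. The alternatives were SAM (100 permutations, mean false count), as named in the series' design text, quantile normalization, median centring, a replicate block, arrayWeights, a trended robust eBayes, a filter keeping the brighter probe sets (mean at or above the median), probe sets averaged by gene, an adjusted p below 0.10, each array left out, and normoxia arrays 2 to 4 left out together. The scripts were tested on simulated data.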

Additional observations from a re-analysis of the deposited data

How the results depend on the processing

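Medians, calls and counts rested on few arrays, and the precision of 5 lungs a group limits every value here. Leaving out single arrays gave 1003 (without normoxia array 4) to 4800 (without normoxia array 5) probe sets called, 748 to 3094 higher and 255 to 1706 lower. It gave 2 to 6 effectors higher, 1 to 6 lower, 1 to 6 regulators higher and 0 lower, and 5 to 14 other pathway genes higher and 1 to 5 lower. The median ran from 0.0049 to 0.10 for effectors and from 0.14 to 0.26 for regulators. Differences near 0 changed sign among these fits: Zbp1 ran from -0.061 to 0.077, Irf3 from -0.028 to 0.074, Jak2 from -0.032 to 0.028, Socs1 from -0.069 to 0.0021 and Usp18 from -0.058 to 0.024. Without normoxia arrays 2, 3 and 4 together, limma called 16 probe sets, 7 higher and 9 lower, with 0 effectors, 0 regulators and 0 other pathway genes in either direction and a regulator median of 0.043. There Ifi35 (-0.0042), Irf3 (-0.036) and Ifngr1 (-0.12) changed sign, and only 2 normoxia arrays were left.

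The replicate block gave 1755 probe sets called, 1274 higher and 481 lower, and Oasl1, Oasl2 and Ifnar2 did not pass (limma adjusted p = 0.0624, 0.0857 and 0.0594). Equal replicate numbers did not pair the lungs, since same-numbered deviations correlated at -0.24 to 0.22, and 3 of 5 hypoxia arrays and 1 of 5 normoxia arrays correlated best with their own number. Quantile normalization left 2 regulators higher, and Irf3 (-0.12), Ifngr1 (-0.0038) and Socs1 (0.015) changed sign. SAM called 1247 probe sets, 5 effectors and 2 other pathway genes lower. arrayWeights called 4132 probe sets, 1411 of them lower, with 6 effectors and 3 other pathway genes lower, and Zbp1 at -0.00079. The filter on brighter probe sets left 492 probe sets and 0 other pathway genes lower, with an effector median of 0.21 over fewer genes. A trended robust eBayes called 2 other pathway genes lower. After averaging the probe sets of each gene the effector median was -0.022, and Zbp1 (-0.057), Eif2ak2 (-0.022), Irf3 (-0.083), Stat2 (0.11) and Jak2 (0.14) changed sign. An adjusted p below 0.10 gave 4954 probe sets, 3184 higher and 1770 lower, with 6 effectors higher, 6 lower and 3 other pathway genes lower. Apart from these constructions, the cause was not tested.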

Other observations

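Single lungs differed in the order of the effectors. Hypoxia array 5 had the lowest value of its group in 10 of 25 effectors and hypoxia array 3 in 7, and normoxia array 1 had the highest value of its group in 9. Of the 15 regulators, normoxia array 3 was the lowest of its group in 10 and normoxia array 5 the highest in 8. Of the 40 measured genes 13 had further probe sets, 18 in all, of which 8 had the sign of the probe set used and 3 passed, 2 of Rsad2 and 1 of Jak1. In 80 sets of 5 values (each gene in each group), 0 lungs stood apart by Dixon's test.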
